A study of Mus musculus with 6 samples.

Results

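The nuclear genes for the subunits of the 4 respiratory complexes and of the ATP synthase were compared between wild-type and Foxf2 mutant mouse brains. A probe set belonged to the group when the platform annotation gave it exactly 1 gene and the symbol of that gene had the form used for a subunit of complex I (Nduf), II (Sdh), III (Uqcr), IV (Cox4 to Cox8) or V (Atp5), leaving out Cox4i2. This took 159 of the 45037 probe sets fitted, for 78 of 18193 singly named genes. Complex I had 72 probe sets for 34 genes, complex II had 9 for 4, complex III had 16 for 8, complex IV had 31 for 15 and complex V had 31 for 17. The rule used names only and no measured value, but it was set with earlier results of these data known.

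Both groups were whole brains of C57/bl6 embryos at E18.5, shortly before birth, with 3 arrays of genotype Wt and 3 of the Foxf2 mutant. Foxf2 is a forkhead transcription factor of brain pericytes, the mural cells of capillaries. Each array gave a MAS5 intensity per probe set, a linear brightness scaled to a common mean on each array. The mutation itself, its zygosity, the litters and the number of embryos behind each array are not given in the labels, so p-values measure only the spread between these samples, which may be technical.

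Complexes I and II take electrons from NADH and succinate and pass them to ubiquinone, complex III hands them to cytochrome c, and complex IV transfers them to oxygen. Complexes I, III and IV pump protons out of the mitochondrial matrix, and complex V, the ATP synthase, uses their return to make ATP. Neurons depend heavily on this route for ATP. Several small subunits of complex IV exist as paired genes, with 1 form general and the other typical of heart and skeletal muscle or of testis.

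Foxf2 itself was dim, with intensities of 18.6, 24.4 and 13.8 on the wild-type arrays and 8.06, 3.31 and 7.57 on the mutant arrays for its brighter probe set. The groups did not overlap, but the probe set lay below the filter on dim signals and was not tested. Neuron markers were bright on every array, with a summed intensity of 18865 to 19639 in wild-type and 18705 to 19457 in mutant brains. Summed endothelial markers read 678 to 711 in wild-type and 507 to 581 in mutant brains. Summed radial glia and astrocyte markers read 10842 to 11816 and 12108 to 12902. Neither sum overlapped between groups, but a sum rests mostly on its brightest probe sets. Single markers were split, with 2 of 5 endothelial probe sets above the filter reading higher and 3 lower. Of 12 radial glia and astrocyte probe sets, 9 read higher and 3 lower. A pair of arrays stood apart by markers of tissue next to the brain. The 12 skeletal muscle markers summed to 152 to 180 on the wild-type arrays, 193 and 195 on mutant arrays 1 and 2, and 2091 on mutant array 3. The 5 pituitary markers summed to 6033 on wild-type array 3 and 803 on mutant array 3, against 67.2 to 142 on the other arrays. The part of these cell types in the results below was not tested, apart from the values given without single arrays. In RNA from whole brain, fewer cells of a type and less RNA per cell cannot be told apart.

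The subunit genes had nearly the same signal in both groups, and 1 of the 144 probe sets above the filter passed the test. That probe set, for Cox6c, rose in the mutants and none fell at an adjusted p of 0.05 in limma with Benjamini-Hochberg adjustment over all 27022 probe sets tested. Over all of these, 0.389% passed in either direction, 0.366% higher and 0.0222% lower in the mutants. Of the members, 73 read higher and 71 lower. The median log2 difference, mutant minus wild type of log2(intensity + 16), was 0.00, with quartiles of -0.08 and 0.08. Over all probe sets tested the median was -0.01, with quartiles of -0.11 and 0.11. At an unadjusted p of 0.05 there were 13 members higher (9.03%) and 8 lower (5.56%), against 7.76% and 5.79% of all probe sets tested. The mutant arrays lay wholly above the wild-type arrays in 19 members (13.2%) and wholly below in 15 (10.4%), against 10.9% and 9.38%. Each of these shares was near its background. The other 15 members were below the filter, an intensity of about 13.2, and Ndufb4, Cox7b2 and Cox8b were represented only there.

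The arrays limited a change in most subunits to within 0.5 log2 units. The difference lay within 0.25 log2 units of 0 for 128 of the 144 members (88.9%), against 83.5% of all probe sets tested. The 95% confidence interval lay wholly within 0.5 log2 units of 0 for 128 members (88.9%), against 73.6%. Most members were bright, and among probe sets with a mean intensity of 500 or more the 2 shares were close, at 107 of 114 members (93.9%) and 92.4% of 2903 probe sets. An interval wholly within 0.25 log2 units of 0 was rarer, with 67 of the 144 members and 3412 of the 27022 probe sets tested. The plot of differences by complex shows the narrow spread and the single call.

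**Figure D1:**
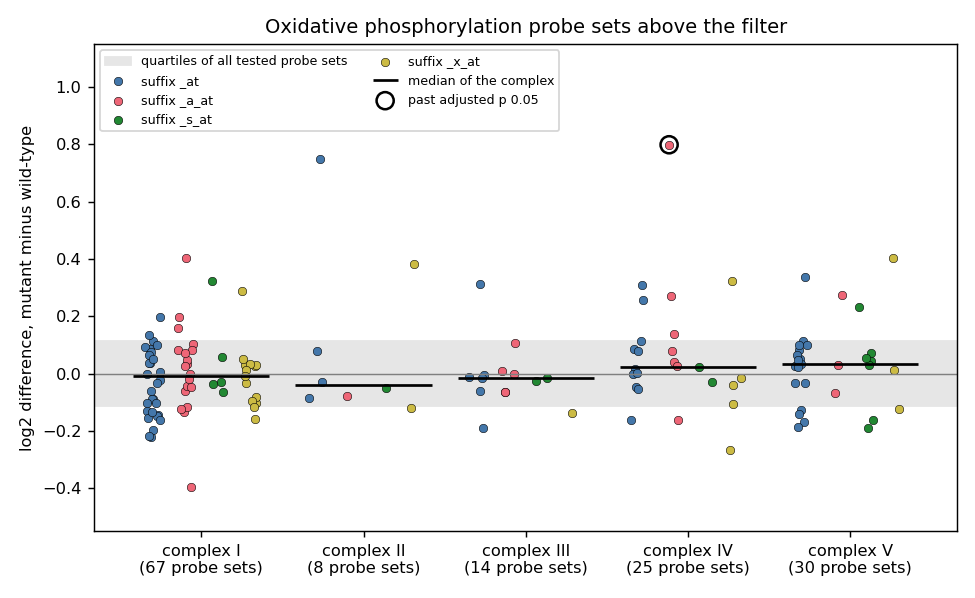
Log2 difference, mutant minus wild-type, of the 144 subunit probe sets above the filter, by complex and coloured by probe set suffix; black lines are medians of the complexes and the grey band spans the quartiles of all tested probe sets. Most points lie within 0.25 of 0, and the ringed Cox6c probe set at 0.80 is the only one past the threshold.

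Complex I, the NADH dehydrogenase, had 67 probe sets above the filter, with a median log2 difference of -0.01. In limma 0 passed the adjusted threshold, and at an unadjusted p of 0.05 there were 2 higher (2.99%, against 7.76% of all probe sets tested) and 4 lower (5.97%, against 5.79%). The mutants lay wholly above in 3 (4.48%, against 10.9%) and wholly below in 7 (10.4%, against 9.38%). Among the core subunits, which carry the flavin and the iron-sulphur clusters, 13 of 16 probe sets (81.2%) read lower, against 51.4% of all probe sets tested, with a median of -0.11. These 16 probe sets stand for only 6 genes, and 6 of them are for Ndufs8, so they are not separate observations. Of the 16, 2 (12.5%) were lower at an unadjusted p of 0.05, against 5.79% of all, and 0 passed the adjusted threshold in limma.

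Ndufv1, the NADH-binding flavoprotein, read 805, 826 and 748 on the wild-type arrays and 681, 649 and 713 on the mutant arrays of its brightest probe set. All mutant arrays were below all wild-type arrays, with a log2 difference of -0.22 ± 0.07 (SE) and an adjusted p of 0.212 in limma. The other Ndufv1 probe sets had differences of 0.03 and -0.03, with overlapping groups. Ndufs8, an iron-sulphur subunit near the quinone site, gave the lowest difference of the complex. Its suffix _a_at probe set read 1766, 1475 and 1182 in wild-type and 1087, 1023 and 1206 in mutant brains, so mutant array 3 was above wild-type array 3. The log2 difference was -0.39 ± 0.13 (SE, adjusted p = 0.243 in limma). The other Ndufs8 probe sets above the filter had differences from -0.16 to 0.05. Ndufs1, the largest subunit of the peripheral arm, read 671, 632 and 555 in wild-type and 552, 563 and 590 in mutant brains. The groups overlapped, and the log2 difference was -0.12 (adjusted p = 0.555 in limma).

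Accessory subunits surround the core of complex I. Ndufa6, an accessory subunit, read 772, 788 and 756 in wild-type and 647, 630 and 707 in mutant brains, which gave a log2 difference of -0.22 (adjusted p = 0.196 in limma) without overlap. Ndufb6, an accessory subunit of the membrane arm, gave the highest difference of the complex. Its suffix _a_at probe set read 836, 1031 and 994 in wild-type and 1150, 1193 and 1461 in mutant brains, which gave a log2 difference of 0.40 ± 0.11 (SE, adjusted p = 0.16 in limma) without overlap. Its suffix _at probe set read 964, 977 and 907 in wild-type and 846, 823 and 1020 in mutant brains, which gave a log2 difference of -0.09 with overlapping groups. The 2 probe sets of this gene therefore read in opposite directions, neither past the threshold. Ndufa12 spread almost as widely, with a suffix _s_at probe set at 0.32 and 3 others at -0.13, 0.03 and 0.03. Ndufa4, named for complex I and now often assigned to complex IV, read 1600, 1622 and 1517 in wild-type and 1609, 1528 and 1412 in mutant brains, with overlapping groups and a log2 difference of -0.06.

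Complex II, the succinate dehydrogenase of both the respiratory chain and the citric acid cycle, had 8 probe sets above the filter, with a median of -0.04. In limma 0 passed, and 2 (25%) had an unadjusted p under 0.05, both higher, against 7.76% of all probe sets tested. Sdha carries the flavin of the enzyme. Its brightest probe set read 1075, 990 and 865 in wild-type and 1062, 1024 and 998 in mutant brains, overlapping, with a log2 difference of 0.08. A dim Sdha probe set gave the highest difference of the complex, at 16.2, 28.6 and 6.24 in wild-type and 33.1, 39.1 and 39.9 in mutant brains. The groups did not overlap, and the log2 difference was 0.75 ± 0.23 (SE, adjusted p = 0.213 in limma), near the filter and with a wide error. Sdhb, the iron-sulphur subunit, read 1607, 1595 and 1584 in wild-type and 1530, 1461 and 1704 in mutant brains, which gave a log2 difference of -0.03. Sdhd, a membrane anchor, had a bright probe set at -0.09 and a dimmer suffix _x_at probe set at 0.38 (adjusted p = 0.181 in limma) without overlap. Sdhc, the other membrane anchor, had -0.12 on a suffix _x_at probe set and -0.08 on a suffix _a_at probe set, both overlapping.

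Complex III, the cytochrome bc1 complex, had 14 probe sets above the filter, of which 11 read lower, with a median of -0.01. In limma 0 passed, and at an unadjusted p of 0.05 there were 0 higher and 1 lower (7.14%, against 5.79% of all). Uqcrh, the hinge protein of the complex, was the lower one. Its suffix _at probe set read 1835, 1658 and 1558 in wild-type and 1396, 1491 and 1532 in mutant brains, which gave a log2 difference of -0.19 ± 0.07 (SE, adjusted p = 0.308 in limma) without overlap. Its suffix _s_at probe set had a difference of -0.01 with overlapping groups. Uqcrc1, a core protein, read 833, 926 and 933 in wild-type and 839, 785 and 952 in mutant brains, which gave a log2 difference of -0.06. Uqcrfs1, the Rieske iron-sulphur protein, read 1078, 1098 and 1036 in wild-type and 972, 1088 and 1126 in mutant brains, which gave a log2 difference of -0.01. Both overlapped between groups. The highest difference, 0.31, came from a dim probe set of Uqcrq, at 6.84 to 15.3 in wild-type and 16.5 to 18.1 in mutant brains, while the bright Uqcrq probe set had -0.03.

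Complex IV, the cytochrome c oxidase, held the only call. It had 25 probe sets above the filter, 16 reading higher and 9 lower, with a median of 0.02. At an unadjusted p of 0.05 there were 5 higher (20%, against 7.76% of all probe sets tested) and 1 lower (4%, against 5.79%). The mutants lay wholly above in 7 (28%, against 10.9%) and wholly below in 3 (12%, against 9.38%). Several of these probe sets share a gene, so they are not separate observations, and the higher ones include 2 of Cox5a and a dim one of Cox5b. Cox6c is a small nuclear-encoded subunit of the enzyme. Its suffix _a_at probe set read 841, 1046 and 1004 on the wild-type arrays and 1555, 1731 and 1763 on the mutant arrays. Every mutant array was above every wild-type array, with means of 964 ± 108 and 1683 ± 112 (SD, n = 3). The log2 difference was 0.80 ± 0.09 (SE), with a 95% interval of 0.59 to 1.0 and an adjusted p of 0.0199 in limma.

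A second Cox6c probe set, of suffix _at, did not show this. It read 3077, 3199 and 2918 in wild-type and 3022, 3147 and 3137 in mutant brains. The groups overlapped, and the log2 difference was 0.02 ± 0.06 (SE, adjusted p = 0.922 in limma). The value table does not tell which part of the Cox6c transcripts each probe set covers. The suffix _a_at marks, by the array's naming, a probe set that matches several transcripts of 1 gene. The RefSeq gene table also lists a Cox6c2 pseudogene. Probe sequences were not available, so whether the probe set also takes up signal from that copy could not be checked. The call was lost without the variance trend (adjusted p = 0.0878) and without wild-type array 1 (0.0944), wild-type array 2 (0.0934), mutant array 2 (0.0768) or mutant array 3 (0.0857), all in limma. The log2 difference stayed between 0.70 and 0.86 under every alternative run.

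The other large subunits of complex IV did not pass. Cox4i1, the general form of subunit 4, read 2755, 2853 and 2795 in wild-type and 2756, 2785 and 3107 in mutant brains. The groups overlapped, and the log2 difference was 0.04, with a 95% interval of -0.10 to 0.18. Cox5a, which binds the matrix side of the enzyme, had 3 bright probe sets that differed among themselves. The suffix _a_at probe set read 2310, 2653 and 2621 in wild-type and 2945, 2858 and 3362 in mutant brains, which gave a log2 difference of 0.27 (adjusted p = 0.204 in limma). The suffix _x_at probe set read 1654, 1824 and 1802 in wild-type and 2077, 2038 and 2522 in mutant brains, which gave a log2 difference of 0.32 (adjusted p = 0.168 in limma). On both, all mutant arrays were above all wild-type arrays. The suffix _at probe set overlapped, at 2113, 1990 and 1889 in wild-type and 1931, 1848 and 2020 in mutant brains, which gave a log2 difference of -0.05.

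Cox5b, a zinc-binding subunit, gave the lowest difference of the complex. A suffix _x_at probe set read 1533, 1829 and 1521 in wild-type and 1369, 1305 and 1365 in mutant brains, which gave a log2 difference of -0.27 ± 0.08 (SE, adjusted p = 0.197 in limma) without overlap. The other bright Cox5b probe sets had -0.16, -0.11 and -0.04, and a dim one near the filter had 0.31.

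Complex V, the ATP synthase, had 30 probe sets above the filter, 20 reading higher and 10 lower, with a median of 0.03. In limma 0 passed, and at an unadjusted p of 0.05 there were 4 higher (13.3%, against 7.76% of all probe sets tested) and 2 lower (6.67%, against 5.79%). Atp5a1 and Atp5b encode the alpha and beta subunits of the catalytic head. The brightest Atp5a1 probe set read 2070, 2208 and 2056 in wild-type and 2019, 2094 and 2082 in mutant brains, which gave a log2 difference of -0.03 with a 95% interval of -0.16 to 0.10. A dim Atp5a1 probe set had 0.34 with the mutants wholly above (adjusted p = 0.334 in limma). A bright one of suffix _s_at had 0.07 with overlapping groups. Atp5b read 2721, 2978 and 2820 in wild-type and 2993, 3006 and 3030 in mutant brains, without overlap but with a log2 difference of only 0.08 (adjusted p = 0.549 in limma), which turned to -0.0015 with quantile normalization. The highest and the lowest differences of the complex lay in its stalks.

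Atp5o, the subunit that joins the catalytic head to the peripheral stalk, gave the highest difference. Its suffix _x_at probe set read 552, 587 and 591 in wild-type and 616, 846 and 870 in mutant brains, so mutant array 1 was close to the wild-type arrays. The log2 difference was 0.40 ± 0.12 (SE, adjusted p = 0.198 in limma), and without mutant array 1 it was 0.56 (adjusted p = 0.0476), past the threshold. The brighter Atp5o probe set, of suffix _a_at, read 2296, 2741 and 2554 in wild-type and 2577, 2499 and 2665 in mutant brains, which gave a log2 difference of 0.03 with overlapping groups. Atp5h, a peripheral stalk subunit, had a suffix _a_at probe set at 1997, 2146 and 2190 in wild-type and 2393, 2651 and 2626 in mutant brains, without overlap and with a log2 difference of 0.27 (adjusted p = 0.122 in limma). Its suffix _at probe set had -0.03 with overlapping groups. Atp5pb, another stalk subunit, had the same kind of split, with 0.23 on a suffix _s_at probe set (adjusted p = 0.254 in limma) and 0.02 on a suffix _at probe set. Atp5d, the delta subunit of the central stalk, gave the lowest difference, at 737, 799 and 728 in wild-type and 629, 643 and 707 in mutant brains. The log2 difference was -0.19 ± 0.07 (SE, adjusted p = 0.283 in limma) without overlap, and its second probe set had -0.16.

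**Figure D2:**
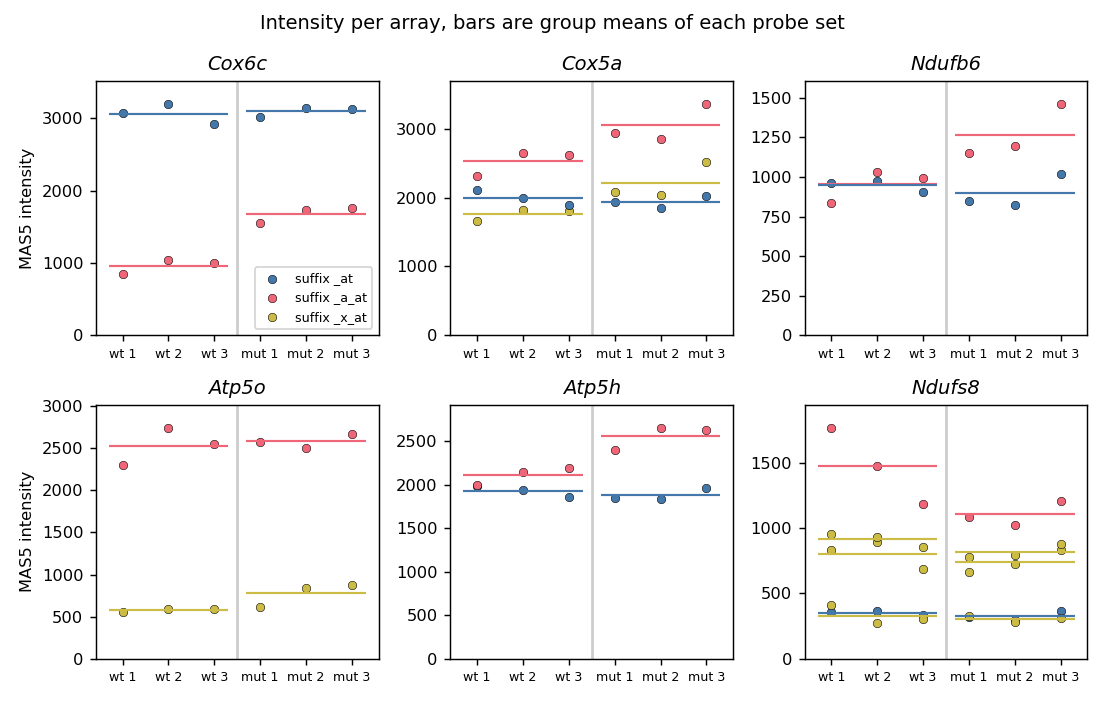
MAS5 intensity on each of the 6 arrays for every probe set of Cox6c, Cox5a, Ndufb6, Atp5o, Atp5h and Ndufs8 with a mean intensity of 100 or more, on a linear axis from 0; points are arrays, coloured by probe set suffix, and bars are group means. In Cox6c the suffix _a_at probe set goes from a mean of 964 to 1683 while the suffix _at probe set has means of 3065 and 3102.

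Different probe sets of 1 subunit gene often read apart, and this was no wider among the members than elsewhere. A suffix of _at marks, by the array's naming, a probe set for 1 transcript, _s_at one shared by several transcripts and _x_at one that can also match other transcripts. Among the 44 member genes with several probe sets above the filter, the median gap between the highest and the lowest log2 difference was 0.139, and 14 (31.8%) had a gap over 0.25. Over all 6199 such genes the median gap was 0.212, with 42.3% over 0.25. With only probe sets of intensity 500 or more, the median gap was 0.113 in 33 member genes and 0.169 in 515 genes. The probe sets of Cox6c spread by 0.78, those of Sdha by 0.80, of Cox5b by 0.58 and of Ndufb6 by 0.49, the widest gaps among the members, with the dim probe sets of Sdha and Cox5b included.

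Where bright probe sets of both kinds existed, the suffixed ones read higher relative to the plain _at probe set of the same gene in 19 of 24 member genes (79.2%), by a median of 0.08. Over all 272 such genes this was 59.9%, with a median of 0.05. By suffix alone, the members of suffix _x_at did not follow the array. The 25 member probe sets of suffix _x_at had a median of -0.02, with 44.0% reading higher, whereas the 1627 tested probe sets of suffix _x_at had a median of 0.10, with 69.5% reading higher, and held 40 of the 99 probe sets called higher. Members of suffix _at (67 probe sets), _a_at (35) and _s_at (17) had medians of 0.00, 0.03 and -0.01. All tested probe sets of these suffixes had medians of -0.012, -0.015 and -0.0034.

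**Figure D3:**
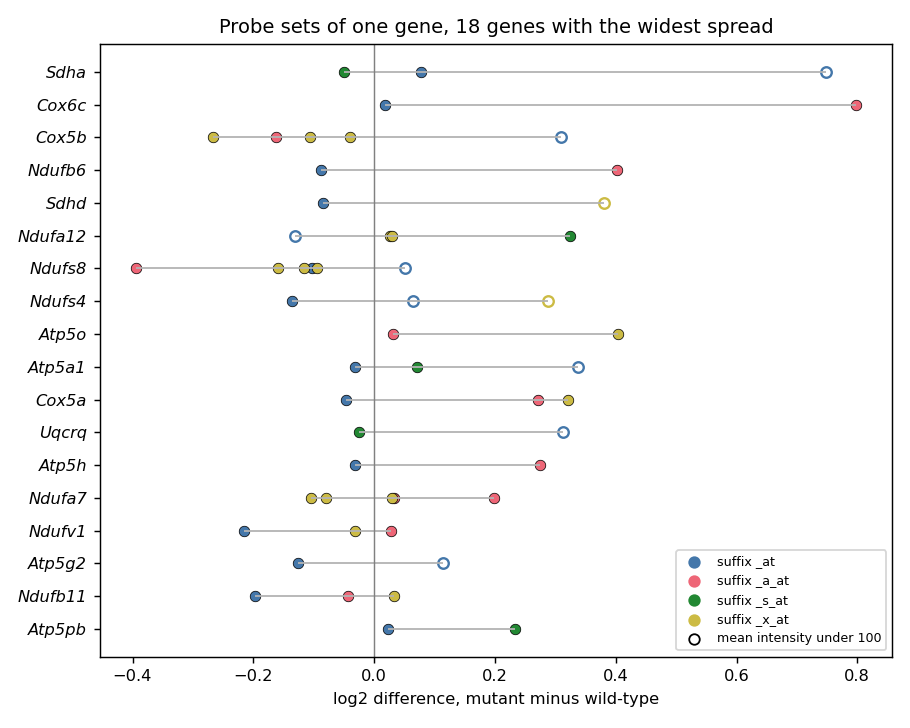
Log2 difference, mutant minus wild-type, of each probe set above the filter for the 18 subunit genes whose probe sets spread most, 1 line per gene, coloured by suffix; open points have a mean intensity under 100. Cox6c reads 0.02 on one probe set and 0.80 on the other, and Ndufb6 reads -0.09 and 0.40.

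The subunit genes moved together between arrays of the same genotype. The median member lay -0.03, 0.05 and -0.03 log2 units from its mean over the 6 arrays on wild-type arrays 1, 2 and 3, and -0.05, -0.01 and 0.07 on mutant arrays 1, 2 and 3. Wild-type array 2 and mutant array 3 were therefore high, mutant array 1 was low, and the groups overlapped. The medians of all probe sets tested stayed within 0.01 of 0 on every array. Of the 144 members, 95 (66.0%) had their highest wild-type value on array 2, against 31.8% of all probe sets tested and 34.7% of those with intensity 500 or more. On the mutant side 104 members (72.2%) were highest on array 3, against 31.9% and 43.0%. Complex II differed within the wild-type group, where 6 of its 8 probe sets were highest on array 1. Complexes I, III, IV and V had their highest wild-type value on array 2 in 64.2%, 71.4%, 72.0% and 76.7% of probe sets. The spread between arrays of 1 group, an SD of 0.05 in wild-type and 0.06 in mutant medians, was larger than the difference between the group means of these medians, which were -0.00 and 0.00. Leaving out wild-type array 2 moved the median difference of the members to 0.03, and leaving out mutant array 3 moved it to -0.03.

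**Figure D4:**
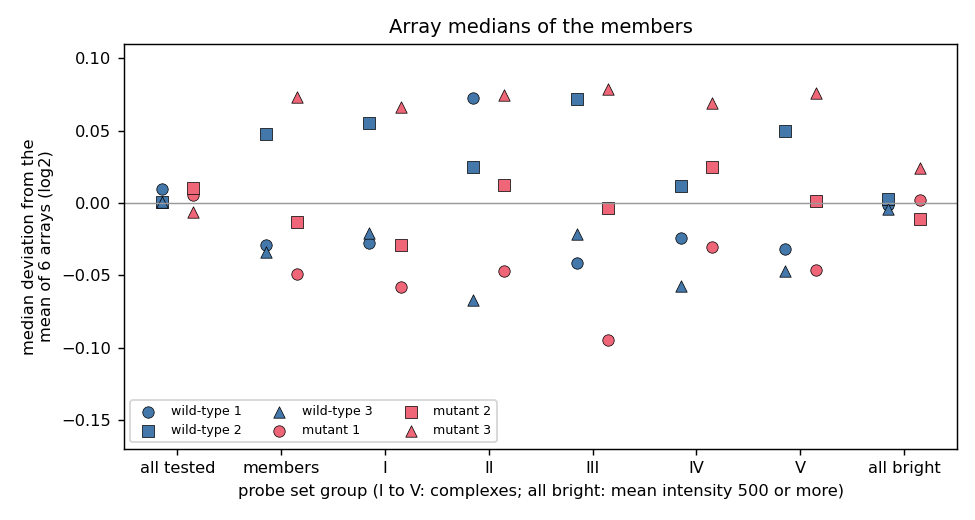
Median deviation from the mean of the 6 arrays, in log2 units, of all tested probe sets, of the members, of each complex and of all bright probe sets, with 1 point per array. Wild-type array 2 and mutant array 3 lie high among the members, at 0.05 and 0.07, while all tested probe sets lie within 0.01 of 0.

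No tissue form of a complex IV subunit passed the test, and the muscle forms read close to or below the filter. Cox6a2, the heart and skeletal muscle form of subunit 6a, read 10.8, 21.8 and 19.0 in wild-type and 10.3, 14.6 and 36.7 in mutant brains. The highest value was on mutant array 3, the array with the high muscle markers. Its log2 difference was 0.09 with all arrays and -0.21 without mutant array 3. A second Cox6a2 probe set, below the filter, was highest on wild-type array 1 at 8.46 and read 2.62 on mutant array 3, so it did not follow the muscle markers. Cox7a1, the muscle form of subunit 7a, read 19.5, 19.6 and 21.0 in wild-type and 18.49, 25.1 and 22.8 in mutant brains, and was not highest on mutant array 3. Cox8b, the muscle form of subunit 8, read 0.932, 4.39 and 1.72 in wild-type and 6.33, 0.816 and 5.46 in mutant brains, below the filter. On the same mutant array 3, 18 of 21 skeletal muscle marker probe sets had their highest value, with the actin gene Acta1 at 741 and the myosin light chain gene Mylpf at 333.

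Cox6a1, the general form of subunit 6a, read 3692, 3751 and 3597 in wild-type and 3960, 3950 and 4245 in mutant brains on its brighter probe set. The groups did not overlap, and the log2 difference was 0.14 (adjusted p = 0.328 in limma), with 0.02 on its second probe set. Cox7a2, the general form of subunit 7a, had differences of 0.08 and 0.00, Cox8a, the general form of subunit 8, of 0.00 and -0.02, and Cox6b1, of subunit 6b, of 0.03 and -0.05. The 0.02, 0.03 and 0.00 values changed sign under other scalings of the arrays. Of the testis forms, Cox6b2 read 86.3, 90.4 and 83.8 in wild-type and 70.2, 79.7 and 78.1 in mutant brains, wholly below, with a log2 difference of -0.16 (adjusted p = 0.496 in limma). Cox8c read 37.3, 33.2 and 35.8 in wild-type and 39.7, 45.4 and 51.8 in mutant brains, wholly above, with a difference of 0.26 (adjusted p = 0.412 in limma). A second Cox8c probe set, below the filter and not tested, read 3.61, 1.32 and 7.20 in wild-type and 9.60, 20.8 and 18.7 in mutant brains. Cox7b2, also below the filter, overlapped between groups at 0.238 to 9.07 in wild-type and 1.08 to 4.79 in mutant brains, and Cox7b had no singly named probe set.

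**Figure D5:**
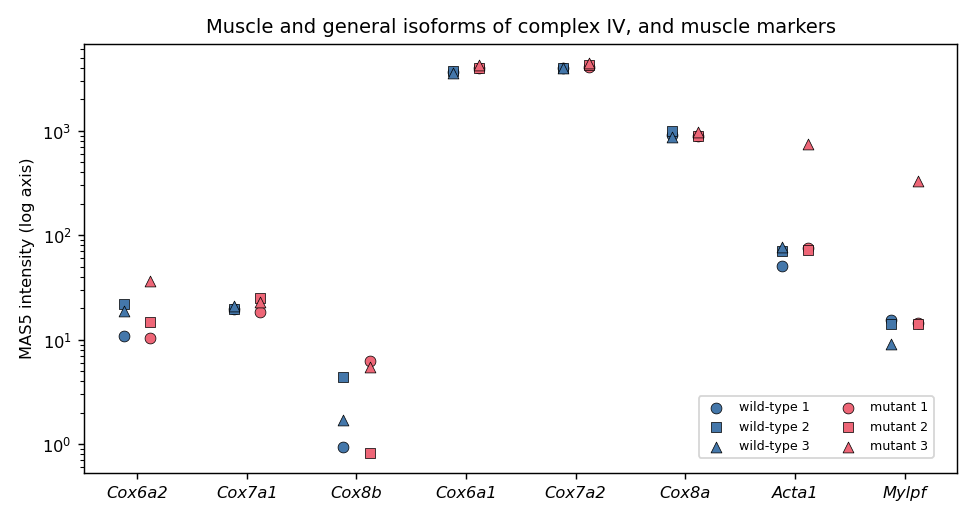
MAS5 intensity on a log axis for general and muscle forms of complex IV subunits and for skeletal muscle markers, with 1 point per array. Mutant array 3 stands apart in the muscle markers, with Acta1 at 741, and reads highest in Cox6a2 at 36.7 but not in Cox7a1.

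Genes that assemble the complexes, regulate them or work beside them were counted on the same fit. Over all probe sets tested, 0.366% were called higher and 0.0222% lower in limma. At an unadjusted p of 0.05, 7.76% were higher and 5.79% lower. Complex IV assembly factors had 1 of 30 probe sets called higher and 0 lower in limma. At an unadjusted p of 0.05 there were 2 higher (6.67%) and 0 lower, and the list's median was -0.03. The called gene was Cox15, which makes the haem A of complex IV. Its suffix _x_at probe set read 80.8, 114 and 84.8 in wild-type and 155, 183 and 210 in mutant brains, without overlap, a log2 difference of 0.87 ± 0.14 (SE, adjusted p = 0.0482 in limma). The other 3 Cox15 probe sets above the filter had 0.06, 0.26 and 0.06, and the call was lost in 10 of 15 alternatives, with adjusted p from 0.0265 to 0.202. Among 34 probe sets for mitochondrial import and the outer membrane 1 was called higher and 0 lower in limma. At an unadjusted p of 0.05 there were 4 in each direction (11.8% each), and the median was -0.01. The called gene was Tomm20, a receptor for imported proteins, whose suffix _a_at probe set read 434, 456 and 519 in wild-type and 733, 791 and 799 in mutant brains, without overlap. The log2 difference was 0.71 ± 0.08 (SE, adjusted p = 0.0199 in limma), lost in 5 of 15 alternatives with adjusted p from 0.00963 to 0.111. The other 5 Tomm20 probe sets lay between -0.04 and 0.30. Cox15 and Tomm20 thus had, like Cox6c, 1 called probe set beside others of the same gene with smaller differences that did not pass.

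In the other 6 lists 0 probe sets passed in limma. At an unadjusted p of 0.05 in limma, 7.76% of all probe sets tested were higher and 5.79% lower. Complex I assembly factors (21 probe sets) had 1 higher and 1 lower (4.76% each). Complex II and III assembly factors (15) had 2 (13.3%) and 0, and complex V factors (8) had 0 and 0. Subunits and carriers outside the naming rule (18) had 2 higher (11.1%) and 0 lower. Nuclear regulators of mitochondrial biogenesis (35) had 5 (14.3%) and 1 (2.86%), and citric acid cycle enzymes (24) had 1 (4.17%) and 2 (8.33%). The medians of these lists lay between -0.05 and 0.02. Ppargc1a, the PGC-1alpha coactivator of mitochondrial biogenesis, had the highest difference of the regulators. Its probe set read 78.7, 91.6 and 92.9 in wild-type and 116, 171 and 155 in mutant brains, without overlap. The log2 difference was 0.64 ± 0.13 (SE, adjusted p = 0.0908 in limma), with adjusted p over the alternatives from 0.0407 to 0.327. Another Ppargc1a probe set had 0.43 and the other 3 had 0.17, 0.15 and 0.01. Cycs, the cytochrome c that carries electrons from complex III to complex IV, had its highest probe set at 0.25 (adjusted p = 0.284 in limma) and its others at -0.03, 0.08 and 0.02. Esrra, a nuclear receptor that acts with PGC-1alpha, had the lowest difference of the regulators, -0.27 on a dim probe set (adjusted p = 0.496 in limma), and -0.20 on a brighter one.

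Cox4i2, the oxygen-regulated form of subunit 4 that brain pericytes express, was left out by the naming rule and was dim, at 5.51, 4.6 and 2.47 in wild-type and 6.66, 12.6 and 13.2 in mutant brains. The mutants lay wholly above, but the probe set was below the filter and not tested. Cox4i2 is itself on the pericyte marker list. Of the other 14 probe sets on that list, all above the filter, 13 (92.9%) read lower in the mutants, against 51.4% of all probe sets tested. These 14 stand for 6 genes. Summed intensities of the pericyte markers were 1496 to 2109 in wild-type and 1483 to 1637 in mutant brains. These sums overlapped.

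Promoters of the members were read from RefSeq on GRCm38.p6, in windows of 250 bases before to 50 after the start. A promoter was listed for 65 of the 78 genes, 70 promoters in all, and the windows were searched on both strands for motifs of factors known to act on respiratory genes. The NRF1 motif, GCGCA and GCGC with any 1 base between them, was in 16 member promoters (22.9%). It was in 4.6% of all 32851 promoters and 6.38% of the 21262 protein-coding ones. The ETS motif CCGGAAG, bound by GABPA, was in 17 (24.3%), against 8.86% of all and 11.6% of protein-coding promoters. The YY1 motif AAGATGGCG was in 6 (8.57%), against 1.4% and 1.83%. At least 1 of these 3 motifs was in 34 promoters (48.6%), against 13.6% of all and 17.9% of protein-coding promoters. The ERRA motif TCAAGGTCA was in 2 (2.86%), against 0.423% of all and 0.334% of protein-coding promoters. The SP1 motif GGGCGG was in 28 (40%), between the 35.7% of all and the 46.2% of protein-coding promoters. The promoters of 3 members are printed as examples and do not stand for general or muscle forms as a kind. The first is that of Cox6a1, the general subunit (chr5:115348909-115349208, minus strand). That of Sdhd holds NRF1, ETS, ERRA and SP1 motifs (chr9:50603800-50604099, minus strand). That of the muscle gene Cox8b holds none of the motifs searched (chr7:140900397-140900696, minus strand). Promoters of subunits that are not muscle forms, such as Cox5b, Ndufv1 and Uqcrfs1, also hold none of them. Capitals mark matches to the NRF1, ETS, YY1 or ERRA motif on either strand, 5′ to 3′ along the gene.
Cox6a1: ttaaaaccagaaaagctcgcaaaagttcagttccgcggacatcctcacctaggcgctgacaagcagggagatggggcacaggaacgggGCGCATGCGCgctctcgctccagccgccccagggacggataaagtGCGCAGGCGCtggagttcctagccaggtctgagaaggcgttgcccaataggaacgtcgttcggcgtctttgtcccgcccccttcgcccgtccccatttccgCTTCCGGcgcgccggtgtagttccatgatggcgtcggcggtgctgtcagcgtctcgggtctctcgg
Sdhd: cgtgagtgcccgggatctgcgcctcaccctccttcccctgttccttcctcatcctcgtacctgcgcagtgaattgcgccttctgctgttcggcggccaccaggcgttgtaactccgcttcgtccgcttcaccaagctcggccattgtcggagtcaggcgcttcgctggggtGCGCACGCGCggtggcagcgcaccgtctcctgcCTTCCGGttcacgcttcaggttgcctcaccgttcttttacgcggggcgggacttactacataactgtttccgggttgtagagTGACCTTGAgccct
Cox8b: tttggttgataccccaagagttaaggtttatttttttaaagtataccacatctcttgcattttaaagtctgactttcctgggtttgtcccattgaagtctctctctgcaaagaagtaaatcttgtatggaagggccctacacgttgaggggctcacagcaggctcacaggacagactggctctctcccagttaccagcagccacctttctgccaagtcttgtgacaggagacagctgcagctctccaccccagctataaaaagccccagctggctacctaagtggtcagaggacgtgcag
A match is a description of the letters only, and none of these factors' binding was measured in these brains. The promoters of Cox6a1 and Sdhd belong to bright genes whose brightest probe sets differed by 0.14 and -0.09, and that of Cox8b to a gene whose probe set lay below the filter.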

How the data were processed

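The table deposited by the authors holds 1 MAS5 intensity per probe set and array, linear and not log-transformed. MAS5 is named in the submitters' processing notes, and its version is not given in the sources used here. The mean of each array without its lowest and highest 2% of probe sets was 100, so the authors' intensities were already scaled between arrays and were used as deposited. Of 45101 probe sets, 64 controls were left out. The platform annotation gave 34945 of the others 1 gene symbol, 932 several and 9160 none, and all 78 member genes were found in the RefSeq gene table of GRCm38.p6 with 0 symbols updated.

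Values were fitted as log2(intensity + 16) with limma 3.58.1 under R 4.3.3, using lmFit and the trended eBayes, and tested two-sided. The offset understates the change of dim genes. P-values were adjusted by Benjamini-Hochberg over the 27022 probe sets whose mean log2 value reached the 40th percentile, with a threshold of 0.05. The fit was also run on simulated data with noise drawn separately for each probe set. That setting lacks the joint movement of the members between arrays, so it does not cover it. The number of arrays, 3 per group, limits the precision, and an exact permutation test of 3 against 3 cannot go below 0.1.

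Named members were those past the threshold, the highest and lowest of each complex, the brightest probe sets of catalytic or defining subunits, all tissue forms of complex IV subunits and the 4 genes with the widest gap between probe sets. From each other list the probe sets past the threshold, otherwise the highest and lowest, were to be named; of these, Acad9, Timmdc1, Sdhaf4, Ttc19, Atpaf2, Atpif1, Ndufab1, Suclg2 and Dlst are given in the closing section. Ndufa4, Ndufa6, Ndufa12, Atp5h, Atp5pb and the bright Uqcrq probe set were chosen after their values were seen. The same holds for further probe sets of Cox5a, Atp5a1, Atp5o, Sdhd, Ppargc1a, Cox15, Tomm20, Cycs, Esrra, Acad9, Ttc19, Atpif1, Ndufab1, Suclg2 and Dlst. The members and lists were chosen with earlier results of these data known. Alternatives covered the offset, the filter, the scaling, the variance trend, array weights, the replicate number, single arrays left out, 1 probe set per gene and members without suffix _x_at.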

Additional observations from a re-analysis of the deposited data

How the results depend on the processing

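The median of the members moved by less than the spread between arrays (0.055) under every alternative run, from -0.05 with arrays centred on their medians to 0.04 without mutant array 1. Their count of 1 call became 0 without the variance trend and 0 with 1 probe set per gene, was 0 to 2 with single arrays left out, and stayed 1 with every other alternative. Over all probe sets the 105 calls became 181 with offset 1, 64 with offset 64, 52 without the filter, 167 with the 60th percentile filter, 56 with median centring, 0 without the trend and 12 with 1 probe set per gene, and 0 to 34 with single arrays left out (34 without wild-type array 3, 28 without mutant array 1, otherwise 0). With 1 probe set per gene the brightest was kept, which for Cox6c was that of suffix _at, so its called probe set was left out. Fits without an array had fewer samples. The cause of the other changes was not tested.

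With the replicate number as a block, calls rose to 220 (201 higher, 19 lower), of which 99 were also among the 105 called without it, and the members kept 1 call. Ppargc1a passed with the block (adjusted p = 0.0407 in limma). The deviations of same-numbered arrays correlated at 0.186, 0.134 and 0.0917, not all over 0.1, and every array correlated best with its own number, a hint from the data and not from the design, so the pairing was not used.

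Of 69 named probe sets, 50 kept their sign in all 15 alternatives. The other 19 had differences of at most 0.15 in size. With single arrays left out, the log2 difference changed sign, over the range given, in the brightest Sdha probe set (-0.0051 to 0.15), Sdha of suffix _s_at (-0.11 to 0.011), Sdhb (-0.093 to 0.017), Sdhc of suffix _x_at (-0.22 to 0.0094), Uqcrfs1 (-0.057 to 0.047), Cox4i1 (-0.016 to 0.070), Cox5b at -0.04 (-0.11 to 0.034), Cox6a2 (-0.21 to 0.29). The same held for Cox6c of suffix _at (-0.017 to 0.049), Cox7a2 of suffix _at (-0.034 to 0.051), Cox7b2 (-0.30 to 0.010), Cox8a of suffix _at (-0.041 to 0.055), Cox8a of suffix _x_at (-0.081 to 0.046), the brightest Atp5a1 probe set (-0.050 to 0.0010), Atp5o of suffix _a_at (-0.037 to 0.090), Atp5pb of suffix _at (-0.035 to 0.057). With quantile normalization, values turned to -0.048 (Cox4i1), -0.023 (Cox6a1 of suffix _s_at), -0.046 (Cox6b1), -0.064 (Cox6c of suffix _at), -0.075 (Cox7a2), -0.0096 (Cox8a), -0.0015 (Atp5b) and -0.045 (Atp5o of suffix _a_at). With median centring, which shifted the median of all probe sets to -0.06, they turned to -0.015, -0.029, -0.027, -0.036, -0.054 and -0.053 for Cox4i1, Cox6a1, Cox6b1, Cox6c, Cox7a2 and Cox8a, and to -0.023 for Atp5o and -0.031 for Atp5pb of suffix _at. With array weights, Cox7a2 turned to -0.0021 and Cox8a to -0.0068. Signal near the filter limits the dim probe sets, such as the Sdha probe set at 0.75.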

Other observations

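Among the genes around the complexes, these probe sets gave the highest or lowest difference of their list, in lists where 0 passed the threshold in limma, and most are dim. Of the complex I assembly factors, Acad9, also an acyl-CoA dehydrogenase, read 153, 145 and 152 in wild-type and 130, 121 and 99.7 in mutant brains, wholly below, with a log2 difference of -0.33 (adjusted p = 0.223), while a second Acad9 probe set had 0.20 with overlapping groups. Timmdc1 read 52.5, 55.2 and 55.2 in wild-type and 65.1, 65.2 and 77.6 in mutant brains, wholly above, with 0.28 (adjusted p = 0.308). Of the complex II and III factors, Sdhaf4 had -0.21 with overlapping groups and Ttc19, a complex III factor, had 0.38 without overlap on a dim probe set. The brighter Ttc19 probe sets read the other way, at -0.14 with the mutants wholly below and -0.12 with overlap. Of the complex V factors, Atpaf2 had -0.30 and Atpif1, the inhibitor of the ATP synthase, had 0.13, both overlapping. The bright Atpif1 probe set had 0.01. Of the subunits outside the naming rule, Ndufab1, the mitochondrial acyl carrier protein, had the lowest difference, -0.18, overlapping, on a dim probe set. Other Ndufab1 probe sets had 0.24 with the mutants wholly above and, on the bright one, -0.12 with overlap. Of the citric acid cycle enzymes, Suclg2, a subunit of succinyl-CoA ligase, had -0.21 without overlap and Dlst, of the oxoglutarate dehydrogenase complex, had 0.23 with overlap, both on dim probe sets. Brighter ones of the same genes read the other way, Suclg2 at 0.19 with the mutants wholly above and Dlst at -0.15 with the mutants wholly below.

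Of the 24 probe sets of citric acid cycle enzymes, 14 (58.3%) were highest in wild-type on array 2 and 12 (50%) were highest in the mutants on array 3, the arrays on which the subunits were high. The shares were 31.8% and 31.9% over all probe sets tested, and 34.7% and 43.0% over those with intensity 500 or more, so the share on mutant array 3 was close to that of bright probe sets.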
